A study of Mus musculus with 5 samples.

Results

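The non-coding RNA of saline control testis was described from 2 libraries, control 1 and control 2, chosen by their group label from the 5 libraries of the series. Both came from male C57BL/6J mice that were 10 weeks old when obtained, were fed saline and were killed after 35 days. The labels give 6 mice in the control group and do not say whether a library is 1 animal or a pool, so the spread between the libraries may be technical in part. The other 3 libraries are from triptolide-treated mice and enter nothing below. No allele or transgene is named in the labels, and the tissue is whole testis, so a signal cannot be assigned to a cell type, and fewer cells of a type cannot be told apart from less RNA per cell.

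Long non-coding RNAs (lncRNAs) are transcripts without a long open reading frame that arise between genes, opposite to genes or within their introns. Circular RNAs (circRNAs) form when a splice donor joins an acceptor upstream of it, which closes the exons between them into a ring, and they are counted from reads that cross this back-splice junction. Testis is known for a rich lncRNA transcriptome, most of it made in meiotic and post-meiotic germ cells, and for precursors of pachytene piRNAs, long RNAs that are cut into small RNAs bound by PIWI proteins. The X and Y chromosomes are silenced in pachytene spermatocytes.

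Depth was close in the 2 libraries. The lncRNA table held 964886 expected counts in control 1 and 1071012 in control 2, against 15442421 and 17799497 in the mRNA table. The lncRNA table thus took 5.88% and 5.68% of the counts of both tables. The mRNA table goes by its deposited name, and whether all its transcripts are coding was not checked. At these depths a lncRNA count of 0 allows up to 3.11 and 2.80 CPM (counts scaled to the lncRNA total of the same library). The circRNA table corresponded to 40026 and 43696 junction reads. Such limits cover counting error only.

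The labelled tissue could be checked only through circRNA hosts and lncRNA loci that carry a gene symbol, since the mRNA table gives transcript IDs without names. Of 11 spermatocyte markers, 5 hosted circRNAs, led by Sycp1, a protein of the synaptonemal complex, with 2110 and 2690 SRPBM (back-splice reads normalised to each library's mapped reads). Of 9 round spermatid markers 3 were hosts, namely Dnah8 (3076 and 2565 SRPBM), Crem (272 and 732) and Spata16 (333 and 156). Of 9 elongating spermatid markers only Prm2, a protamine, was a host (703 and 290 SRPBM), and of 7 spermatogonial markers only Dmrt1 (140 and 124). None of 8 Sertoli, 5 smooth muscle, 5 endothelial, 5 red blood cell or 5 epididymal markers hosted a circRNA in either library. Lhcgr was the 1 host among 8 Leydig markers (0 and 33 SRPBM), and Adgre1 the 1 host among 6 immune markers (17 and 0). Over all protein-coding genes in RefSeq 11.6% were hosts. The lists with 1 host are near that share, and lists of 5 or 8 markers are too short to tell no host from it. A circRNA host list says little of cell types whose genes form few circles, and the absence of a host is no measure of the gene's mRNA. New antisense loci were found at germ cell markers, with 293 and 228 CPM at Spata16 and 70.5 and 129.8 at Sycp2. A locus with the symbols Socs1 and Tnp2 had 61.1 and 57.9 CPM. The median over all loci detected in both libraries was 18.6 CPM. Antisense loci at Sycp1, Dnah8 and Gapdhs were also above it in both libraries. Those at Dmrt1 (4.146 and 4.668 CPM), Hormad1 (3.109 and 5.602), Tex101 (1.036 and 1.867) and Smcp (13.47 and 8.403) were below it. Other new antisense loci lay at Star, a Leydig gene (52.9 and 57.9 CPM), and at the fat cell genes Adipoq (197 and 204 CPM) and Fabp4 (10.4 and 4.67 CPM). Those at Myh11, a smooth muscle gene (1.04 and 0 CPM), and Pecam1, an endothelial gene (3.11 and 0 CPM), had no count in control 2.

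The lncRNA table listed 33057 transcripts at 16356 loci, and 9687 loci (59.2%) reached 1 expected count in both libraries. Control 1 had 11144 such loci and control 2 had 11068, and 3789 loci were at 0 in both. Every transcript listed had at least 2 exons, 39.6% had exactly 2, and the most had 19. The authors' table labels each transcript as known or new. Of known transcripts 46.4% were detected in both libraries, and of new ones 57.8%. The median CPM of those detected was 18.7 and 17.9 for known and 12.5 and 11.8 for new transcripts. Among loci, 90.8% of the 792 whose transcripts fell into several classes were detected, 64.1% of antisense, 56.6% of intergenic and 37.5% of the 746 intronic loci. Loci of several classes have several transcripts by definition, and their counts are summed. No source used here says how transcripts came to be listed, and new ones may be listed because this series had reads for them. The detection shares thus describe the table and are not a result about the classes.

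Intergenic transcripts held 63.8% of the counts in control 1 and 62.8% in control 2, antisense transcripts 32.2% and 33.1%, and intronic transcripts 4.05% in each. The 2 libraries thus differed by about 1 percentage point for each main class. Known transcripts made up 34.1% of the transcripts listed but held 43.0% and 42.1% of the counts. Per length the balance moved further toward them, with 51.1% and 50.8% of the FPKM (counts scaled to length and library, over transcripts of an effective length of at least 200 bases). New intergenic transcripts were 47.1% of those listed and held 37.9% and 37.7% of the counts but 33.7% and 33.4% of the FPKM. New intronic transcripts were rare, 75 in all, with 0.126% and 0.128% of the counts.

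**Figure D1:**
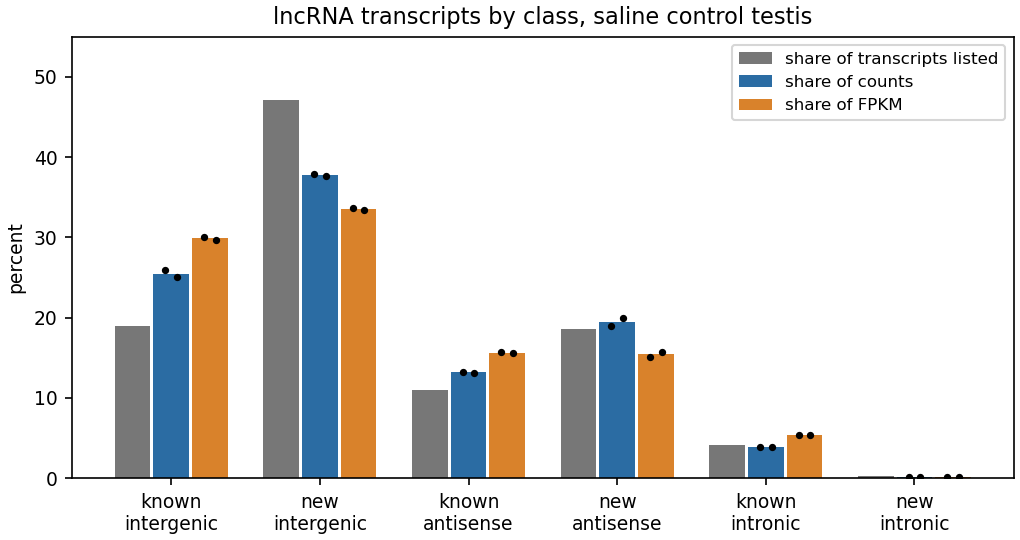
Percent of listed transcripts (grey), of expected counts (blue) and of FPKM (orange) by lncRNA class in saline control testis. Bars are the mean of the 2 libraries and dots the single libraries. Known intergenic transcripts take a larger share of FPKM than of transcripts listed, and new intergenic transcripts a smaller one.

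Abundance was concentrated in few loci. The 10 most abundant loci took 8.74% and 9.37% of the lncRNA counts and the 100 most abundant 31.0% and 32.8%. It took 328 and 298 loci to reach 50% of the counts, against 1321 and 1229 transcripts in the mRNA table and 427 and 496 circRNAs in theirs. The numbers of features in the 3 tables differ in kind (loci, transcripts, circles), so these counts describe each table and are not a test between them.

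**Figure D2:**
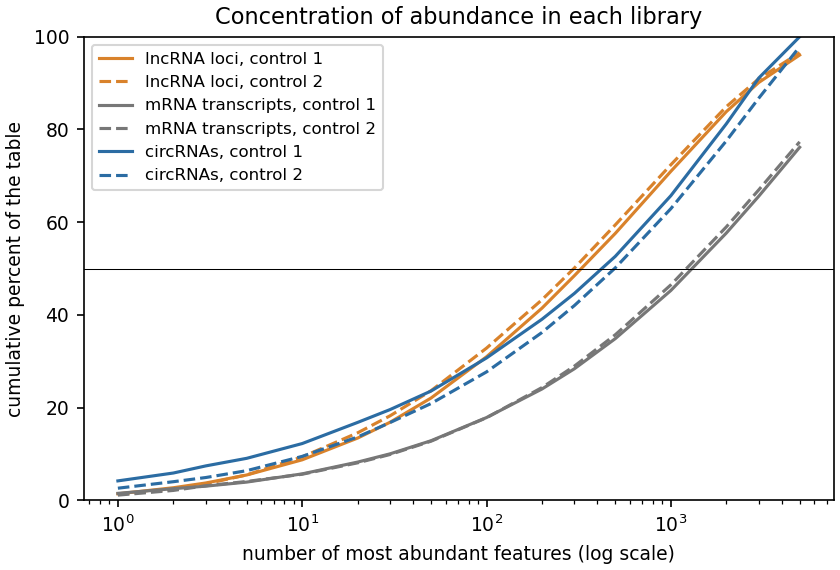
Cumulative percent of each table held by its most abundant features (log scale), for control 1 (solid) and control 2 (dashed). The horizontal line marks 50%, which lncRNA loci cross at 328 and 298 loci and mRNA transcripts at 1321 and 1229.

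Cdiptos, named as the opposite strand transcript of the phosphatidylinositol synthase gene Cdipt, lies on chromosome 7 (126971720 to 126976098, coordinates as deposited). The authors list it as a known lncRNA and RefSeq as protein-coding. It had the most counts, 14048 and 12688 CPM, or 13368 ± 962 (SD, n = 2). Its transcript of 6 exons with an effective length of 1888 bases held 62.0% and 62.9% of the locus, and another of 6 exons held 32.0% in each library. 1700001L05Rik on chromosome 15 followed with 13117 and 11768 CPM, in which transcripts of 5 and 3 exons had 53.3% and 42.3% in control 1 and 53.1% and 41.8% in control 2. Gm2762 on chromosome 13 had 10304 and 9531 CPM. At Cdiptos and 1700001L05Rik the division among transcripts was alike in the 2 libraries, while at Gm2762 the leading transcript was the same (76.2% and 73.9%) and the next 2 changed places. The names 1700001L05Rik and Gm2762 come from cDNA collections and gene prediction, and no function is given here.

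The promoters of the loci below, from the RefSeq table for GRCm38.p6, are shown because they differ widely in CpG content among the most abundant known lncRNAs. Each runs 5′ to 3′ from 250 bases before to 50 bases after the RefSeq start, with CpG dinucleotides in capitals. The Cdiptos window lies wholly inside the deposited locus, whose 5′ end is upstream of that start.
1700001L05Rik (chr15:83367248-83367547, - strand): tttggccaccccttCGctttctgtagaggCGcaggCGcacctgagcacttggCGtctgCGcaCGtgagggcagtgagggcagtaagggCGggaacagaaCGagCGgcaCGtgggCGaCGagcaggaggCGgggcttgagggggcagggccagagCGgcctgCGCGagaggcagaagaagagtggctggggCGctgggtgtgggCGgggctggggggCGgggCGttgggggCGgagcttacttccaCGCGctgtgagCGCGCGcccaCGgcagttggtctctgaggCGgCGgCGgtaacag
Cdiptos (chr7:126975797-126976096, - strand): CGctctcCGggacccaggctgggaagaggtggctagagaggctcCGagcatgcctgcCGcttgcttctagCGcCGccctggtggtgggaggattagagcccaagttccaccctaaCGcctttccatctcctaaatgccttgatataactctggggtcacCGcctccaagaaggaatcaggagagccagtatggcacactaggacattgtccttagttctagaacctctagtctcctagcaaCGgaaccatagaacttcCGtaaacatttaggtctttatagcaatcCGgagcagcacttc
4930403D09Rik (chr11:34299492-34299791, + strand): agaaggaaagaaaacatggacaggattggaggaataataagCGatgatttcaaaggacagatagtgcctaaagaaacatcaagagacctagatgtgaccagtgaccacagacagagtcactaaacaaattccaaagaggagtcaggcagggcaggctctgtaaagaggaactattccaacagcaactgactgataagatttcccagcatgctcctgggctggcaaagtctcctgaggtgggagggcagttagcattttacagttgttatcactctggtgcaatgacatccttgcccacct
The 1700001L05Rik promoter held 30 CpG, an observed to expected ratio of 0.893, that of Cdiptos 11 (0.512) and that of 4930403D09Rik 1 (0.0647). Over the 20 most abundant known lncRNA loci with a promoter in the table, the median ratio was 0.460, and 13 of 20 lay under 0.6. Over all 11588 lncRNA promoters the median was 0.245, with 86.0% under 0.6. Over the 20 most abundant circRNA hosts it was 0.880, with 3 of 20 under 0.6, and over all 21263 protein-coding promoters 0.567, with 52.3% under 0.6. The core of the MYB motif, TAACTG or CAACTG on either strand, was in 8 of the 20 lncRNA promoters (40%), in 3 of the 20 host promoters (15%) and in 22.1% of all 32851 promoters. Its share was 26.7% of all lncRNA and 19.6% of all protein-coding promoters. The CRE core TGACGT, on either strand, was in 4 (20%), 1 (5%) and 7.51%, and in 5.71% of lncRNA and 8.49% of protein-coding promoters. The motifs do not overlap each other, and a match is only a run of letters in the window.

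Counts and levels per length gave different orders, mostly for long loci. XLOC_166709, a new intergenic locus on chromosome 7 (73104850 to 73166436, plus strand), had the third most counts, 9729 and 11136 CPM, but an effective length of 45325 bases and rank 794 by FPKM (218 and 250). A new locus antisense to Kcnk10, a potassium channel gene on chromosome 12, had 7483 and 8915 CPM over 24969 bases, and rank 564 by FPKM (300 and 357, to 3 digits). A new locus at Mroh4 on chromosome 15 had 5639 and 6696 CPM over 30611 bases, and rank 901 by FPKM. Among known loci Gm21221 on chromosome 5 was of the same kind, with 7234 and 7741 CPM over 22282 bases. In contrast XLOC_067852, a new locus on chromosome 15 in which RefSeq places 4930449C09Rik, had 6757 and 6841 CPM over 1574 bases and rank 17 by FPKM.

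Among the 50 new loci with most counts the median effective length was 5035 bases, and 13 were of 10 kb or longer. Among the 50 known loci with most counts it was 1281 bases, and 2 were that long. The median CPM of the new loci was 2419 and of the known loci 2178, while the median FPKM was 539 and 2155. Effective length was computed from the deposited counts and FPKM. It never exceeded the genomic span of the transcript among 2735 transcripts with enough reads to tell.

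The FPKM of a locus cover only its transcripts of an effective length of at least 200 bases. By the mean of the 2 libraries the highest locus was 4930403D09Rik, antisense within Dock2 on chromosome 11, with 17138 and 10753 FPKM. Malat1, a nuclear lncRNA that is abundant in most tissues, came next by the mean with 10560 and 12470 FPKM. It is represented here by 2 transcripts of 2 exons with an effective length of 245 bases. The table holds no transcript of a single exon, and the unspliced form that Malat1 is known for was not analysed here. 1700008K24Rik on chromosome 17 had 13033 and 9712 FPKM, and Rbakdn on chromosome 5 had 11278 and 10036. Gm26917 on chromosome 17 had 4801 and 14458 FPKM, the highest of these in control 2, so the order differed between the libraries. FPKM of such short features carry the error of their short effective lengths, and the order depends on the cut at 200 bases. The 1700027A15Rik locus that overlaps Tnp1 had 5596 and 4382 CPM over 164 bases, but rank 759 by FPKM. The locus antisense to Filip1l, with 3419 and 9739 CPM over 159 bases, had rank 19.

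Some abundant new loci lay in divergent pairs. In all, 377 pairs of detected loci started within 1000 bases of each other on opposite strands and pointed apart or overlapped at their starts, and 753 loci (7.77% of those detected) were in such a pair. Of the 20 loci with most counts 4 were in pairs, and of the 100 with most counts 9 were. On chromosome 7, XLOC_166709 started 599 bases inside XLOC_173153 on the minus strand, which had 3103 and 3905 CPM over 4732 bases. On chromosome 10, XLOC_015689 (4050 and 4606 CPM) and XLOC_020567 (5270 and 6185 CPM) started 50 bases apart and ran over 9574 and 10380 bases. On chromosome 2, the new XLOC_106330 (1704 and 1742 CPM) and the known XLOC_113531 (1420 and 1692 CPM) started 224 bases apart. On chromosome 19, XLOC_099240 (956 and 954 CPM) and XLOC_101810 (975 and 1391 CPM) overlapped, with starts 258 bases apart.

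In these pairs both partners were abundant, which was not the rule. Both partners reached a mean of 100 CPM in 21 of the 377 pairs, the median difference between partners was 1.96 on the log2 scale, and Pearson's r of the partners' log2 CPM was 0.22 over the pairs, which share the libraries. 1700029M20Rik on chromosome 4 (5752 and 6139 CPM) faced a new locus 301 bases away with 160 and 271 CPM. Long divergent precursors are a known form of pachytene piRNA locus, as background, but small RNAs were not measured here, and none of these loci is identified as one.

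Of 19 genes of the piRNA pathway, 11 hosted circRNAs (11.6% of all protein-coding genes did). Mov10l1, a helicase that acts on precursors, had 5 circRNAs with 314 and 478 SRPBM, Gtsf1, a small zinc finger protein that works with PIWI proteins, 5 with 333 and 353, and Rnf17, a Tudor domain protein, 8 with 289 and 426. Mybl1, the transcription factor of pachytene precursors, had 1 circRNA with 26 and 58 SRPBM. Antisense lncRNA loci at pathway genes were low, from 0 to 18.7 CPM, with the highest at Tdrd7.

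Antisense loci ranged up to that at Kcnk10. A new locus antisense to Rpsa, a ribosomal protein gene on chromosome 9, had 4158 and 4581 CPM. 1700006J14Rik, antisense to Hmga2 on chromosome 10, had 4256 and 4175 CPM. The library kit keeps strand, but no source used here says whether counting used it, so a locus opposite to a gene may include that gene's reads. The highest intronic locus by counts, 4930442L01Rik within Pdzk1 on chromosome 3, had 2279 and 2419 CPM, and Nol4l on chromosome 2 had 1544 and 2129.

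Of 56 lncRNAs with a common name, 20 had a locus in the table and 17 of these a count in at least 1 library, at 20 of 23 loci. By the same rule 12567 of all 16356 loci had a count. The other 36 lncRNAs with a common name were not analysed here. 1700027A15Rik, whose locus overlaps the transition protein gene Tnp1 on chromosome 1, had 5596 and 4382 CPM. Cep83os had 2398 and 2477 CPM in 1 transcript. The locus of Nespas, the imprinted antisense RNA of Gnas, had 850 and 847 CPM. Lncpint, a p53-regulated RNA, had 161 and 145 CPM, Pvt1, next to Myc, 174 and 109, and Firre, an X-linked nuclear RNA, 109 and 49.5. The imprinted H19 was low, 9.33 and 13.1 CPM. Ftx, a neighbour of Xist, had 13.5 and 17.7 CPM. Hotair, Mhrt and Halr1 had no count in either library, which allows up to 3.11 and 2.80 CPM.

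MicroRNA genes lay inside 13 detected lncRNA loci, 30 in all of the 1072 in the RefSeq table. Mirg, the maternally expressed host of the Dlk1-Dio3 cluster on chromosome 12, held 14 and had 486 and 331 CPM. A new locus that carries the symbol Gm904 on chromosome 13 held Mir683-1 and Mir683-2 and had 2278 and 2703 CPM. Gm9748 on chromosome 14 held Mir759 (988 and 1288 CPM), a new locus on chromosome 10 held Mir378d (500 and 373 CPM, to 3 digits), and Dleu2, a host lost in chronic lymphocytic leukaemia, held Mir15a and Mir16-1 (134 and 163 CPM). These values measure the locus and not the mature microRNA. Mature RNAs from 5 of these loci are shown, among them the pairs that share a seed. They run 5′ to 3′ with the seed (bases 2 to 8) in capitals, from RefSeq.
mmu-miR-683: cCUGCUGUaagcuguguccuc
mmu-miR-759: gCAGAGUGcaaacaauuuugac
mmu-miR-378d: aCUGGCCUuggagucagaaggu
mmu-miR-453: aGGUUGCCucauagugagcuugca
mmu-miR-496a-5p: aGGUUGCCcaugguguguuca
mmu-miR-134-5p: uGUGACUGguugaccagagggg
mmu-miR-16-5p: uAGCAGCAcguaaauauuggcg
mmu-miR-15a-5p: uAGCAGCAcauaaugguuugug
Among the mature RNAs in the table for the 13 loci, seeds were shared by miR-453 and miR-496a-5p, both from Mirg, and by miR-16-5p and miR-15a-5p, both from Dleu2.

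The 2 libraries were compared feature by feature. Over 12567 loci above 0 in at least 1 library, Pearson's r of log2(CPM + 1) was 0.890 and Spearman's rho 0.870. Of 1894 loci with at least 100 counts in a library, 90.5% lay within 1.5-fold and 98.9% within 2-fold of each other, and 21 differed by more. The biological coefficient of variation, the spread beyond sampling noise as edgeR estimates it, was 16.7% over 5633 loci, 28.4% over 8902 single lncRNA transcripts and 28.8% over 26552 mRNA transcripts. Over 46790 mRNA transcripts r was 0.914. The spread was thus lower over loci than over single lncRNA transcripts, but the filter kept different features in each, so the effect of summing alone was not tested. Features are not replicates, and the r values have no p.

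**Figure D3:**
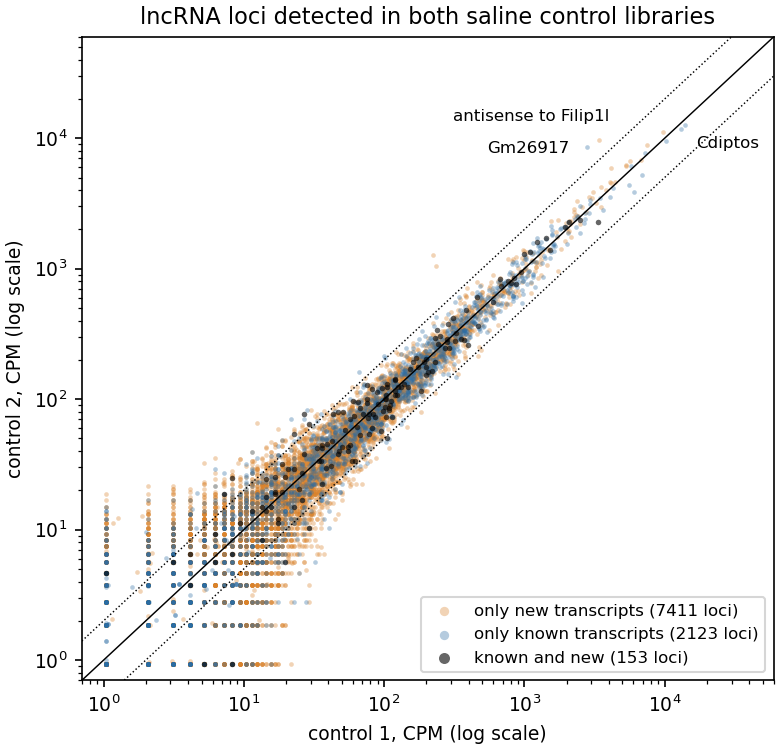
CPM of the 9687 lncRNA loci detected in both libraries, control 1 against control 2, on log scales. Orange points are loci with new transcripts only, blue with known only and black with both. The solid line is equality and the dotted lines 2-fold, outside which lie Gm26917 and the locus antisense to Filip1l.

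The 5 loci of at least 100 counts that differed most were all higher in control 2. Gm26917 on chromosome 17 had 2818 and 8635 CPM, 3.06-fold apart. In RefSeq its neighbour is Rn18s-rs5, a sequence related to 18S ribosomal RNA. A new locus antisense to Filip1l on chromosome 16 had 3419 and 9739 CPM, 2.85-fold apart, and spans a pseudogene, Gm20956. XLOC_093646 had 224 and 1283 CPM, and XLOC_064957 235 and 1057. The effective length of XLOC_064957 was only 6.74 bases, so its level is uncertain. The new locus at Gm26893 on chromosome 14 had 0 and 129 counts. Of the 4 mRNA transcripts with most counts ENSMUST00000192833 moved the same way, 3762 and 10126 CPM, while ENSMUST00000082402 had 15063 and 11223. Ribosomal RNA had been removed from the libraries, and whether what was left of it differed was not tested.

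The leading transcript of a locus was not always the same in the 2 libraries. Among 5433 loci with several transcripts, the same transcript held most counts in both libraries in 66.5%. It held a median of 69.2% of the counts in control 1 and 69.0% in control 2. In the 2168 loci with at least 50 counts in each library and several transcripts the same transcript led in 76.3%. XLOC_166709 shows the division of expected counts among similar transcripts, with 42.4%, 32.4% and 25.2% in control 1 and 43.7%, 40.1% and 16.2% in control 2.

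The circRNA table listed 7569 circles above 0 in at least 1 control library, 4510 in control 1 and 5484 in control 2, of which 2425 (32.0%) were above 0 in both. The smallest value was 2 reads. Spans on the genome had a median of 16756 bases, with 287 under 1 kb and 320 of 100 kb or more, and circles of 10 to 50 kb took 54.8% and 54.3% of the SRPBM. Of the circles 909 (12.0%) had no host gene in the table and took 7.999% and 8.498% of the SRPBM. The highest of these by the mean lay on X at 66792833 to 66796572, with 897 and 1160 SRPBM.

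Bbs9, a subunit of the BBSome that moves membrane proteins into cilia, gave the most abundant circle. It ran from 22643745 to 22679064 on chromosome 9 and had 14656 SRPBM (1672 reads) in control 1 and 9396 (1137 reads) in control 2. A circle from the same start to 22659145 had 5366 and 3239 SRPBM. Of the 17 circles of Bbs9, 6 began at that start, the acceptor end on the plus strand, and held 97.0% and 95.9% of the host's SRPBM. The host had 24194 and 15174 SRPBM, 6.92% and 4.23% of all, so control 1 was higher for the sum and for each of the circles named. Of the 6 circles at this start, the one to 22793933 spanned 150189 bases (1055 and 679 SRPBM) and the one to 22887996 spanned 244252 bases (131 and 91).

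**Figure D4:**
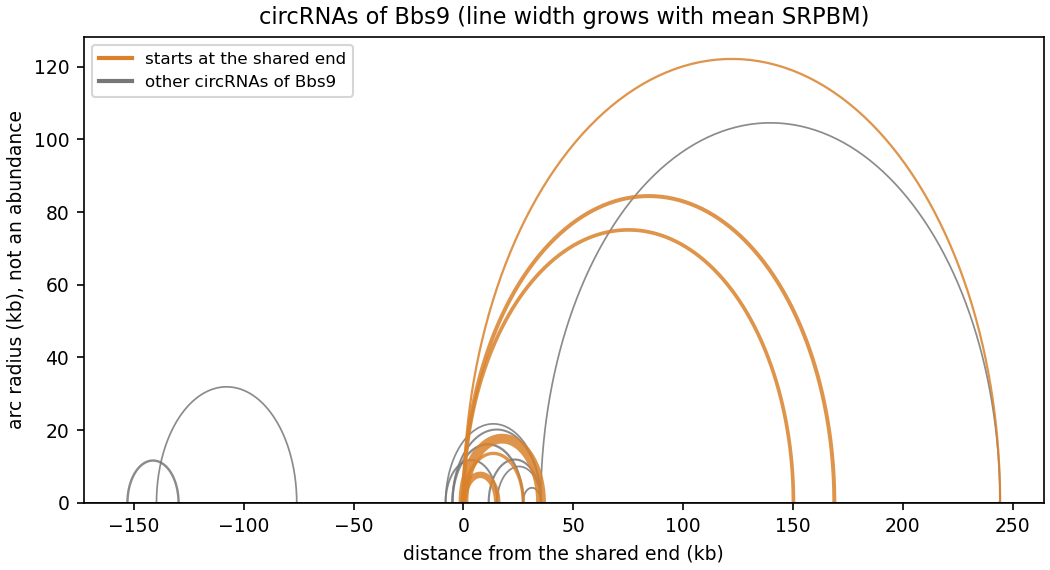
The 17 circRNAs of Bbs9 as arcs between their 2 ends, in kb from the acceptor end that 6 of them share (orange). Line width grows with the mean SRPBM of the 2 libraries, and the arc height only reflects the span. The 2 thickest arcs are the circles of 14656 and 9396 SRPBM and of 5366 and 3239 SRPBM.

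Ep400, the ATPase of a chromatin remodelling complex, came second with a circle of 2963 bases on chromosome 5 (110753804 to 110756766) at 5938 and 5038 SRPBM. A shorter circle with the same end, from 110755397, had 1583 and 1226. The others among the 12 most abundant came from Tulp4 (2692 and 2610), Oxr1 (2604 and 2693), Ankib1 (3017 and 1922), Enah (2322 and 2369), Nlrp5-ps (1856 and 2369), Scaper (1917 and 2129), Dnah7a (1689 and 2237), Gbe1 (2366 and 1499) and Sycp1 (1794 and 1972). Tulp4, Oxr1 and Enah differed by little between libraries, and Ankib1 and Gbe1, a glycogen branching enzyme, were higher in control 1. Most of a host's signal often lay in 1 circle, with 97.4% of Oxr1, 96.1% of Ankib1 and 84.8% of Tulp4 in the top circle, against 15.2% of Tbc1d5 and 13.1% of Mllt10.

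The circles came from 2653 hosts, of which 1406 (53.0%) gave a single circle. At the other end 82 hosts gave 10 or more, and these 3.09% of the hosts held 26.4% and 27.5% of the SRPBM. The median RefSeq gene length of these was 213 kb, against 53.8 kb for hosts of 1 circle. Over circles above 0 in either library Dnah8 gave the most, 37, and other hosts of many circles included Vps13b (34), Tbc1d5 (29), Dnah7c (27) and Mllt10 (24). Of circles above 0 in both libraries Tbc1d5 gave 18 and Dnah8 13. At Dnah8, 14 circles shared an acceptor end at 30635321 on chromosome 17, but with only 523 and 410 SRPBM in sum. At Strbp, a spermatid RNA-binding protein gene, 10 circles shared an acceptor end and had 2082 and 3475 SRPBM. Of 5340 circles whose host strand could be assigned, 63.3% shared an end with another.

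Of 15 axonemal dynein heavy chains, motors of cilia and sperm tails, 11 were hosts, with 103 circles and 8119 and 9706 SRPBM in sum. Dnah7a (1880 and 2654 SRPBM), Dnah7b (1872 and 1882) and Dnah7c (873 and 2425) all lie on chromosome 1 and are close copies. Reads may thus be divided among them, and their single values are uncertain. Dnah1, Dnah10 and Dnah11 were listed at 0 in control 2. Of 40 hosts whose circles are known across species or tissues, 28 were hosts here. Man1a2 had 12 circles with 1058 and 865 SRPBM, Homer1 4 with 702 and 579, Rims2 15 with 681 and 1552, Zfp609 5 with 315 and 271 and Hipk3 2 with 113 and 115. Among 13 regulators of circle formation 3 were hosts, with Qk, the RNA-binding protein Quaking, at 967 and 555 SRPBM. These lists were not tested against other genes. For scale, 11.6% of the 21900 protein-coding genes in RefSeq were hosts.

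The share of circles seen in both libraries rose with their reads. Of circles with 2 reads in control 1, 29.1% were above 0 in control 2, and of those with 10 to 19 reads 91.2% were. Of circles with 20 to 49 reads in control 1, 99.0% were above 0 in control 2, and with 50 or more 98.9%. The reverse did not reach that level. Of circles with 20 to 49 reads in control 2, 76.2% were above 0 in control 1, and with 50 or more 81.6%. In all, 78 of 350 circles (22.3%) with at least 20 reads in control 2 were listed at 0 in control 1, and 3 of 296 (1.01%) the other way.

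**Figure D5:**
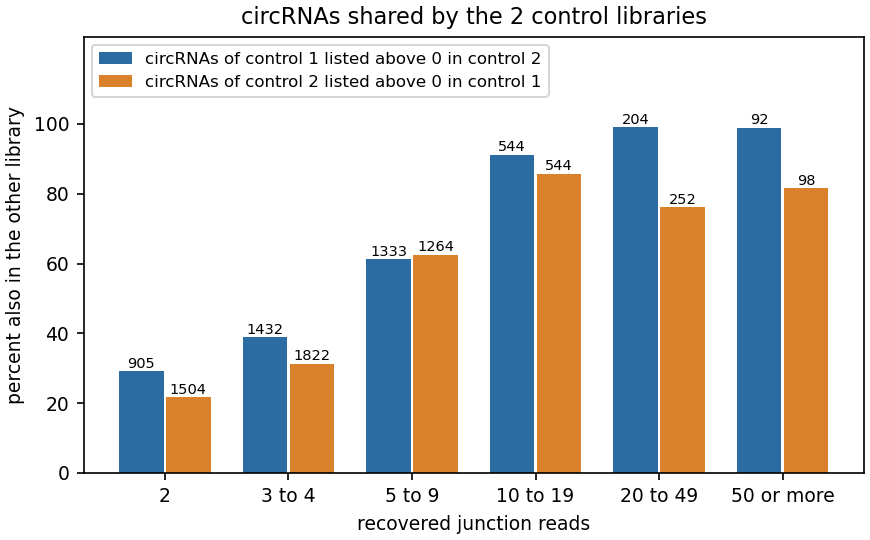
Percent of the circRNAs of control 1 (blue) and control 2 (orange) that were above 0 in the other library, by recovered junction reads. Numbers above the bars are circRNAs in the bin. From 20 reads upward the blue bars are near 100% and the orange bars near 80%.

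The circles listed at 0 in control 1 included those of Gm7133 (0 and 1823 SRPBM, 0 and 221 reads), Dnah7c (0 and 1292), a pair at Tasp1 that share an end (0 and 1292, 0 and 1284) and Tsga10 (0 and 1234). They lay on 18 chromosomes and held 8.02% of the SRPBM of control 2. Their median span was 18028 bases, against 18310 for those above 0 in both libraries, and of 72 with a host, 61 had a host with another circle in control 1. With 221 reads in 1 library, a 0 in the other is outside counting error, and no source used here says what a 0 stands for in the deposited table. The circle of Cadm1 (747 and 0 SRPBM, 85 and 0 reads) was the strongest in the other direction.

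Agreement of circle values followed this. Pearson's r of log2(SRPBM + 16) was 0.311 over 7569 circles above 0 in at least 1 library and 0.772 over the 2425 above 0 in both. Spearman's rho was 0.0939 and 0.590. Summed over hosts r was 0.677, and 1417 of 2653 hosts (53.4%) were above 0 in both libraries. Of 4723 gene symbols of detected lncRNA loci, 495 were also circRNA hosts, 10.5% of the lncRNA symbols and 18.7% of the hosts. Of all protein-coding genes in RefSeq 11.6% were hosts, but the lncRNA symbols include non-coding genes, so that share is not a like base. No base was computed for the 18.7%, and neither overlap is read as a result.

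The X and Y chromosomes gave few circles. X gave 75 circles, 0.991% of all, from 4.45 hosts per 100 protein-coding genes. The autosomes ranged from 7.09 on chromosome 7 to 18.4 on chromosome 12, with a median of 12.6. Y gave 5 circles, at Uty, Usp9y, Ddx3y and a site without a host, the last with 290 and 174 SRPBM. Among lncRNA loci 52.2% of those on X and 14.5% of the 440 on Y were detected in both libraries, against 54.4% to 65.3% on the autosomes. X held 2.09% and 1.79% of the lncRNA counts, beside 2.20% of the loci listed and 1.94% of those detected in both libraries. Its highest loci were Gm15104 (4081 and 3524 CPM, protein-coding in RefSeq) and 4930515L19Rik (3325 and 2279 CPM). On Y, Gm29277 and Gm29089 had the same values as each other, 825 and 617 CPM. They may be near-identical copies that share reads, so their single values are uncertain.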

How the data were processed

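Testis RNA of the saline control group was measured in 2 strand-specific libraries depleted of ribosomal RNA, per the labels' protocols. The submitters' processing notes list bedtools 2.17.0, DESeq, HISAT2 2.0.1 and HTSeq 0.6.1 and give no role to any of them. They also name the human build hg19, yet 99.1% of the circRNAs whose host is in the RefSeq table (GRCm38.p6) lie inside it, so coordinates are printed as deposited. The authors deposited expected counts per transcript for mRNA and lncRNA, with FPKM values beside the lncRNA counts, per the file headers. For circRNAs the deposited table holds a score, by its name SRPBM, rounded to whole numbers by the authors. Its low values are multiples of 8.76 and 8.26 SRPBM, taken as 1 read, and 97.6% and 98.4% of entries came within 0.1 of a whole read.

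Counts were summed per locus and scaled to CPM of the table's total. Detection meant 1 expected count. Effective length is the count divided by FPKM and table total. edgeR 4.0.16 (TMM, filterByExpr, on rounded counts) gave the coefficient of variation, after a test on simulated data, and DESeq2 1.42.0 gave other size factors (R 4.3.3). With 2 libraries of 1 group no comparison was tested. A chi-square of counts over features exceeded sampling noise (mean 9.53 and median 2.08 per lncRNA locus of at least 100 counts), so they were not counted as 1 library deposited 2 times. Whether they are separate animals is not known from it. Columns were matched by header, and 17 per-sample columns were not used.

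The text names the 12 highest loci and circRNAs, the 5 highest per class, the 10 top hosts by circles and by SRPBM, the 5 largest library differences, the 4 highest mRNA transcripts and members of the gene lists. An item that this rule selects is not reported here. Loci ranked by FPKM, divergent pairs, circles shared by an end, circles at 0 in 1 library, loci with hairpins and features of X and Y were chosen after their values were seen. Members and lists were chosen with earlier results of these data known. Alternatives tried were each library alone, detection and length rules, scaling, pseudocounts, single transcripts, recovered reads and leaving out the 10 most abundant features.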

Additional observations from a re-analysis of the deposited data

How the results depend on the processing

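No paired analysis was possible because only the control group is described and nothing was compared between groups. Of 117 alternative values 91 stayed within 1.5 times the count, the spread of the libraries or 5% of the measure. The others were 25 that moved and 1 that changed sign. Where the limit was the spread of the libraries, each library alone stays within it by construction. Such values are among the 91 and show no stability. Leaving out each library in turn for the chromosome shares was added after the data were seen. With each control library alone, detected lncRNA loci were 11068 to 11144, detected circRNAs 4510 to 5484 (2425 in both) and hosts of 10 or more circles 27 to 50 (82 over both libraries). Detected loci were 5732 at 10 counts, and 17816 single transcripts were detected. Detected circRNAs were 1190 at 5 recovered reads, and 11 hosts had 10 or more circles above 0 in both. Known transcripts were 29.4% of detected transcripts (42.6% of counts), intergenic 64.3% (63.3%) and antisense 31.9% (32.7%). Without the 10 most abundant loci these count shares were 41.3%, 62.0% and 33.5%. Cdiptos had 773 CPM of both tables together. Pearson's r of log2(CPM + 0.1) was 0.722 for lncRNA loci and 0.837 for mRNA, and 0.680 for single lncRNA transcripts at CPM + 1. The coefficient of variation was 22.7% for loci and 83.2% for mRNA transcripts without a filter and 28.4% for single lncRNA transcripts. For circRNAs r was 0.772 over those above 0 in both and -0.127 with a pseudocount of 1, by construction, as circles at 0 in 1 library then weigh more. X held 0.991% of circRNAs and 0.811% of SRPBM. At 50 counts the main transcript held 57.7% (69.1% at 1 count) and was the same in 76.3% of loci (66.5%). With 2 libraries no spread is well known. Depth limits loci of under 3 counts, which a count of 0 allows, and circles of under 5 reads, most of which were seen in 1 library only. The build, the counting strand and the meaning of a 0 for circRNAs could not be settled.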
